A study of Mus musculus with 8 samples.

Results

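The enzymes that make serine and pass its carbon to folate were followed in mouse neural progenitors, isolated from neural tubes of embryonic day 14. The group holds 9 genes, matched by symbol in a table of 32499 genes: Phgdh, Psat1 and Psph of serine synthesis, the mitochondrial folate enzymes Shmt2, Mthfd2, Mthfd1l and Aldh1l2, and the cytosolic folate enzymes Shmt1 and Mthfd1. They were chosen by the difference between 53BP1KO and Ctrl in these same libraries, so that difference is described below for the 9 genes and is not tested. RNA-seq counts were available for 4 53BP1KO and 4 Ctrl libraries. The 53BP1KO embryos came from crosses of males with CRISPR-made in-frame deletions in 53bp1 to Trp53bp1tm1Jc females, and the Ctrl embryos were wild type, per the labels' protocols. All were labelled C57BL/6, and in both groups the cells were sorted from dissociated neural tubes with NeuroFluor CDr3, a dye for neural progenitors. The alleles are carried by every cell of the embryo, and the labels do not say whether the sorted cells were first cultured in differentiation medium. Nor do they say that replicates came from separate embryos, so a p-value here measures only how the libraries vary, and that variation may be technical.

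Serine is built from a glycolytic intermediate by Phgdh, Psat1 and Psph in turn. Serine hydroxymethyltransferases (Shmt1 in the cytosol, Shmt2 in mitochondria) then turn serine into glycine and load the carbon that is freed onto tetrahydrofolate. In mitochondria this carbon is oxidised by Mthfd2 and released as formate by Mthfd1l, or burnt to CO2 by Aldh1l2, while in the cytosol Mthfd1 joins formate to folate again for purine, thymidylate and methionine synthesis. In the brain, Phgdh is known as a gene of radial glia and astrocytes, and human serine deficiencies impair brain development.

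Total counts were between 11081419 and 24339621 in the 53BP1KO libraries and between 15343046 and 18189045 in the Ctrl libraries. The level of Trp53bp1 did not separate the groups, with 19.2 to 33.8 CPM (counts scaled to a common library size) in 53BP1KO and 26.4 to 27.2 CPM in Ctrl. What the alleles of either parent do to this whole-gene count was not tested. Sex went with group: Xist, the RNA of the inactive X chromosome, averaged 0.768 ± 0.435 CPM in 53BP1KO and 1463 ± 119.7 CPM in Ctrl, and the Y-linked gene Ddx3y averaged 47.3 ± 2.85 CPM in 53BP1KO and was at 0 counts in Ctrl (SD, n = 4 each). The Y-linked genes Eif2s3y, Kdm5d and Uty averaged 100.1, 33.7 and 25.4 CPM in 53BP1KO, against 0.0297, 0.0271 and 0.839 CPM in Ctrl. Genotype and sex therefore cannot be told apart in any difference below. Fewer cells of a type and less RNA per cell also cannot be told apart in such bulk libraries.

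To show what the genes have in common outside their levels, the promoter windows of RefSeq (build GRCm38.p6, 250 bases before to 50 after a start) were searched on both strands for sequences of known factors. Windows were found for 8 of the 9 genes, with a second one for Psat1, and that of Aldh1l2 was not analysed here. The core of the C/EBP-ATF response element, TGATGNAA, the E-box CACGTG of MYC and MAX, and the E2F sequences TTTCGCGC and TTTGGCGC were in none of these windows. The shares of all 32851 mouse windows that hold them are 3.97%, 7.15%, 0.323% and 0.514% in that order. The letters CCAAT, the box known to bind NF-Y and picked after the windows had been read, were in 6 of the 9 windows of these genes, against 37.4% of all windows. They were present in genes of both directions, in Phgdh, Psat1 (in 1 of its 2 windows), Psph and Mthfd2 and in the cytosolic Shmt1 and Mthfd1. A window of Psat1 and that of Mthfd2 held 3 matches each, and 3.37% of all windows held at least 3. A match is a description of letters only. The 150 bases before the start are shown 5′ to 3′ on the gene's strand for these 6 genes, with CCAAT or its complement in capitals; of the remaining matches, that of Psat1 lies beyond its start and that of Phgdh farther upstream.
Phgdh, chr3:98339970-98340119, minus strand: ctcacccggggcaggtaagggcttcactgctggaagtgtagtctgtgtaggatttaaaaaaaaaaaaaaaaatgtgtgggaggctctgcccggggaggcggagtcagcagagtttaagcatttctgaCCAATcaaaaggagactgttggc
Psat1, chr19:15925060-15925209, minus strand: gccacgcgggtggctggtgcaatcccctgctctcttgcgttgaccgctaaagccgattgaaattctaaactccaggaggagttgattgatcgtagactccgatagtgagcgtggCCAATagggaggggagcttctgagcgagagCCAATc
Psph, chr5:129787254-129787403, minus strand: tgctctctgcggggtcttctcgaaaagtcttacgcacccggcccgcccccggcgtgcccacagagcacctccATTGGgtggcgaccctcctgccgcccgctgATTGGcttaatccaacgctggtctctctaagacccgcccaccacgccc
Mthfd2, chr6:83317605-83317754, minus strand: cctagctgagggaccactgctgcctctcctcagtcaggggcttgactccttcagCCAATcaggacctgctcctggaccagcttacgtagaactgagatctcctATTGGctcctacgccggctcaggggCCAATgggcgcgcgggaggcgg
Shmt1, chr11:60811266-60811415, minus strand: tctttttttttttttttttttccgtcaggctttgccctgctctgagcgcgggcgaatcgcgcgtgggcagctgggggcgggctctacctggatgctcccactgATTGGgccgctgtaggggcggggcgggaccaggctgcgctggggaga
Mthfd1, chr12:76255082-76255231, plus strand: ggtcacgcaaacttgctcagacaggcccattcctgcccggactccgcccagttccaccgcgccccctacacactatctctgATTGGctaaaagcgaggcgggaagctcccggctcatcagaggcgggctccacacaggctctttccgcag

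Of the 9 chosen genes, the 3 of serine synthesis and the 4 mitochondrial folate enzymes were higher in 53BP1KO. The 2 cytosolic folate enzymes among them were lower, and other folate enzymes of both compartments are described further below. All 9 genes passed the filter on low counts. In the fit over all 15021 genes tested, 7 of the 9 were called higher and 2 were called lower, where 16.1% of all genes were called higher and 13.9% lower. The groups did not overlap for any of the 9: in 7 every 53BP1KO library lay above every Ctrl library, as in 15.9% of all genes, and in 2 every one lay below, as in 13.9%. Since the genes were picked for this contrast, nothing is read from these counts. Together the 9 genes summed to between 1907.6 and 2294.8 CPM in 53BP1KO and between 737.9 and 1054.3 CPM in Ctrl.

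**Figure D1:**
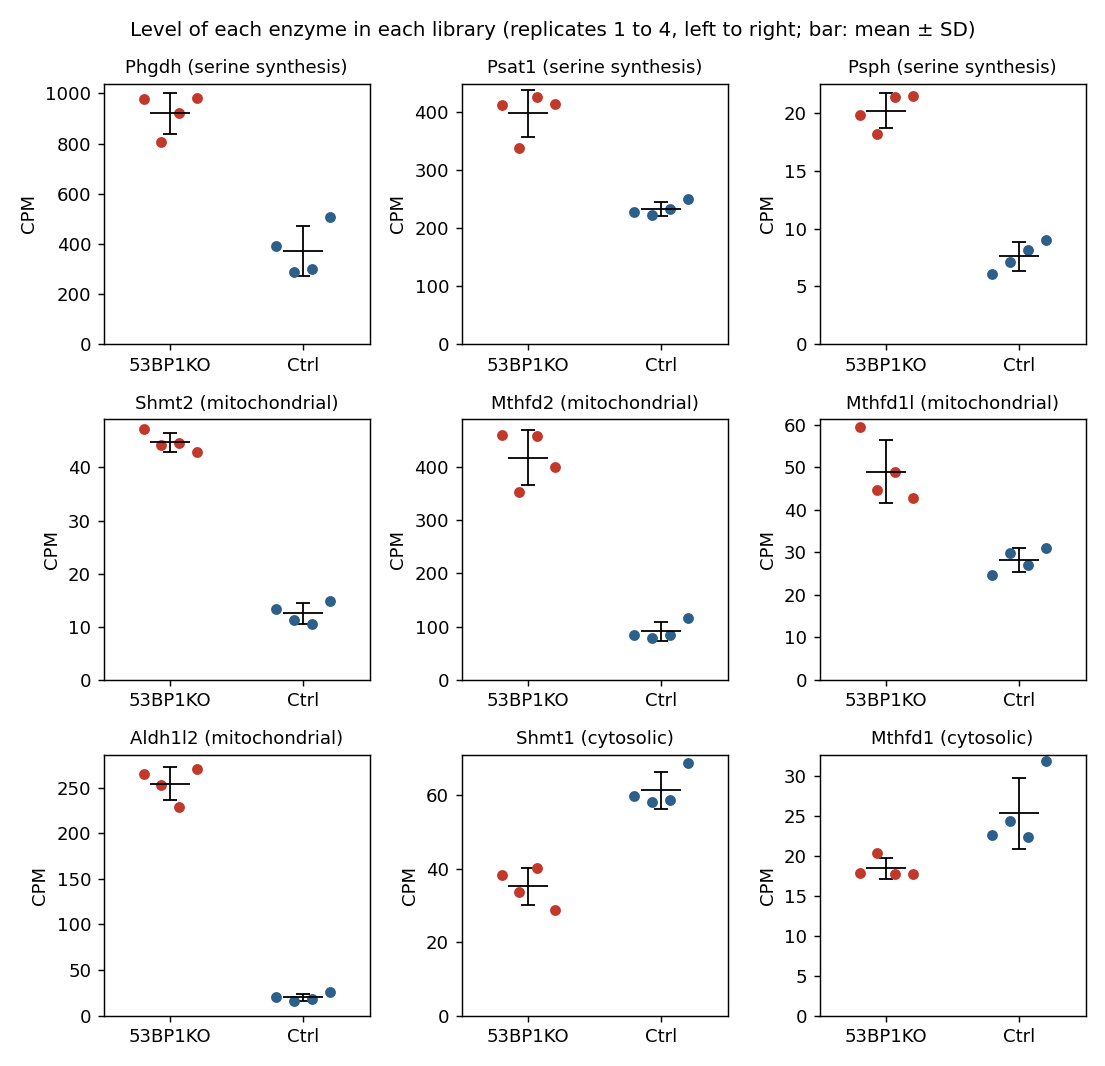
Level of each of the 9 enzymes in CPM in the 4 53BP1KO and the 4 Ctrl libraries, with the mean and SD as bars. The groups do not overlap in any panel, and only the panels of Shmt1 and Mthfd1 have 53BP1KO below Ctrl.

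Phgdh, the enzyme of the committed step of serine synthesis, had 975.7, 804.8, 922.8 and 979.8 CPM in 53BP1KO replicates 1 to 4, against 389.3, 288.9, 297.8 and 506.1 CPM in Ctrl replicates 1 to 4. Its log2 fold change was 1.31 (SE 0.15), or 2.49-fold. The Ctrl libraries were spread more widely, with a coefficient of variation of 8.86% in 53BP1KO and 27.3% in Ctrl, and Ctrl replicate 4 stood highest. Psat1, the transaminase that takes its nitrogen from glutamate, had 412.2, 336.8, 425.5 and 413.0 CPM in 53BP1KO and 226.6, 222.5, 232.2 and 250.2 CPM in Ctrl. Here 53BP1KO replicate 2 was below the other 53BP1KO libraries and still above all Ctrl libraries. The log2 fold change was 0.77 (SE 0.09), the smallest of the 7 genes that were higher. Psph, the phosphatase of the last step, was the least abundant of the trio in CPM, with 19.9, 18.2, 21.4 and 21.5 CPM in 53BP1KO and 6.08, 7.11, 8.13 and 9.05 CPM in Ctrl. Its log2 fold change was 1.42 (SE 0.13).

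Among the mitochondrial enzymes the difference was widest for Aldh1l2, which oxidises formyl-tetrahydrofolate and yields NADPH. It had 264.8, 253.1, 229.0 and 270.2 CPM in 53BP1KO, against 20.2, 16.5, 18.0 and 25.7 CPM in Ctrl. This 12.7-fold difference (log2 fold change 3.66, SE 0.13) ranked 31 from the top among 15021 genes. Mthfd2, the dehydrogenase and cyclohydrolase known from embryonic and dividing cells, had 459.6, 351.6, 457.1 and 399.8 CPM in 53BP1KO, against 84.5, 79.0, 83.3 and 116.4 CPM in Ctrl. Ctrl replicate 4 was again the highest of its group, and the log2 fold change was 2.20 (SE 0.13), or 4.59-fold. Shmt2, which feeds serine carbon into this branch, had 47.2, 44.3, 44.6 and 42.9 CPM in 53BP1KO and 13.4, 11.2, 10.5 and 14.9 CPM in Ctrl. Its 53BP1KO libraries were the most even of any of the 9 genes, with a coefficient of variation of 4.06%, and the log2 fold change was 1.84 (SE 0.12). Mthfd1l, the synthetase that releases formate, had 59.5, 44.6, 49.0 and 42.8 CPM in 53BP1KO and 24.7, 29.9, 27.1 and 31.0 CPM in Ctrl. It showed the smallest difference of these 4 mitochondrial enzymes (log2 fold change 0.80, SE 0.12).

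The cytosolic enzymes among the 9 lay on the other side. Shmt1, the cytosolic counterpart of Shmt2, had 38.2, 33.8, 40.1 and 28.7 CPM in 53BP1KO, against 59.8, 58.3, 58.6 and 68.9 CPM in Ctrl. Its log2 fold change was -0.80 (SE 0.11). Mthfd1, which carries the dehydrogenase, cyclohydrolase and synthetase activities in a single cytosolic protein, had 17.9, 20.4, 17.8 and 17.7 CPM in 53BP1KO and 22.7, 24.4, 22.4 and 31.9 CPM in Ctrl. The log2 fold change was -0.46 (SE 0.13), the smallest in size of the 9, and the gap between the highest 53BP1KO and the lowest Ctrl library was narrow.

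Within the Ctrl group, replicate 4 had the highest level of all 9 genes, including the pair that were lower in 53BP1KO. Within 53BP1KO no library led throughout: replicate 2 had the lowest Phgdh, Psat1, Psph and Mthfd2, and replicate 4 the lowest Shmt2, Mthfd1l, Shmt1 and Mthfd1. Over 16 other settings, which left out each library in turn or changed the scaling, filter or test, the log2 fold change stayed between 3.57 and 3.79 for Aldh1l2, between 1.21 and 1.49 for Phgdh and between -0.52 and -0.35 for Mthfd1.

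Since counts grow with length, levels were compared between genes as CPM per kilobase of exon. In 53BP1KO the order was Phgdh (486.4 ± 43.1), Mthfd2 (200 ± 24.8), Psat1 (135.2 ± 13.8), Aldh1l2 (41.7 ± 3.00) and Shmt2 (19.4 ± 0.788), each apart from the next in every library. Shmt1 (12.3 ± 1.77), Psph (11.7 ± 0.884) and Mthfd1l (11.5 ± 1.76) overlapped, and Mthfd1 came last with 5.68 ± 0.404 CPM per kilobase (SD, n = 4). In Ctrl, Phgdh (195.7 ± 53.4), Psat1 (79.3 ± 4.16), Mthfd2 (43.6 ± 8.26) and Shmt1 (21.5 ± 1.77) led without overlap. Mthfd1 (7.83 ± 1.38), Mthfd1l (6.59 ± 0.667), Shmt2 (5.42 ± 0.882), Psph (4.38 ± 0.739) and Aldh1l2 (3.30 ± 0.665) followed, and neighbours among these overlapped. Aldh1l2 thus held place 4 of 9 in 53BP1KO and the last place in Ctrl. The exon lengths were those of GENCODE M21 on GRCm38, while the counts were made on another build. With the longest principal transcript as the length, Mthfd1l moved above Shmt1 and Psph in 53BP1KO, still overlapping both, and in Ctrl it no longer overlapped Shmt2.

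**Figure D2:**
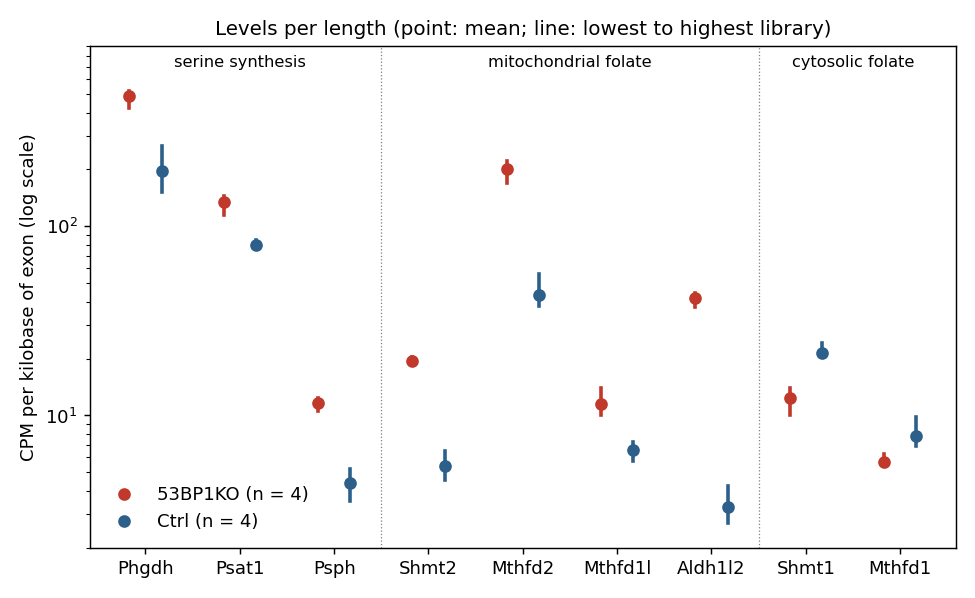
Level of each enzyme in CPM per kilobase of exon on a log scale, as the mean (point) and the lowest to highest library (line) of 53BP1KO and Ctrl, n = 4 each. Shmt2 lies above Shmt1 in 53BP1KO (19.4 against 12.3) and below it in Ctrl (5.42 against 21.5).

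The balance between the chosen mitochondrial and cytosolic enzymes differed between the groups. Per kilobase, Shmt2 exceeded Shmt1 in 53BP1KO, whereas Shmt1 exceeded Shmt2 in Ctrl. Within each library the log2 ratio of Shmt2 to Shmt1 counts, which does not depend on depth or scaling, was 0.31, 0.39, 0.16 and 0.58 in 53BP1KO replicates 1 to 4 and -2.16, -2.38, -2.47 and -2.2 in Ctrl replicates 1 to 4. The difference of the means was 2.66, or 6.33-fold, in which length cancels. For Mthfd1l over Mthfd1, the enzymes that handle formate on either side, the ratio was 1.74, 1.13, 1.46 and 1.27 in 53BP1KO and 0.12, 0.29, 0.27 and -0.04 in Ctrl, a difference of 1.24. For Mthfd2 over Mthfd1 it averaged 4.49 ± 0.27 in 53BP1KO and 1.84 ± 0.10 in Ctrl (SD, n = 4), a difference of 2.66. These ratios restate the levels of selected genes and were not tested.

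**Figure D3:**
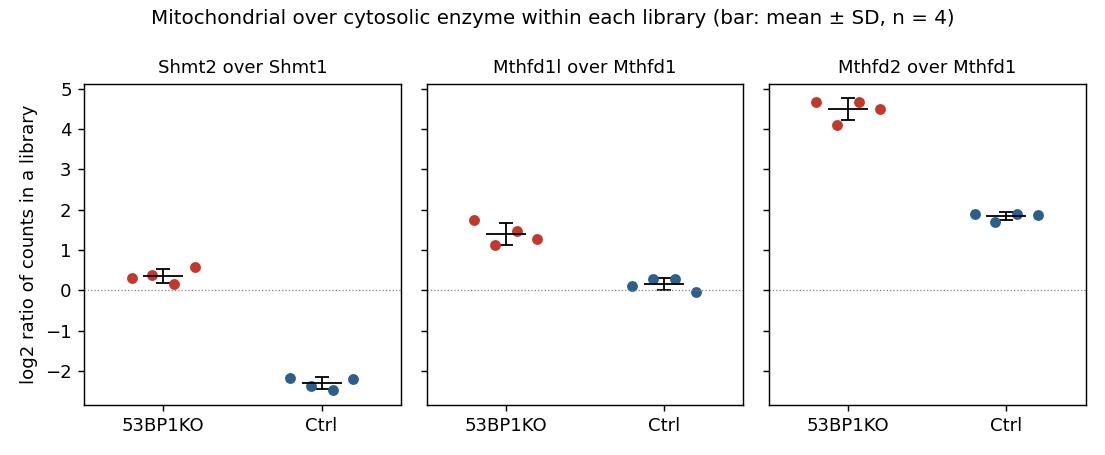
Log2 ratio of the counts of a mitochondrial enzyme to those of a cytosolic one in each library, with the mean and SD of 4 libraries per group. All 53BP1KO libraries lie above all Ctrl libraries in each panel, and Shmt2 over Shmt1 has opposite signs in the groups.

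Some of these genes share exon sequence with a neighbour on the opposite strand in GENCODE M21, and the strand setting of the counting is not given in the sources used here. Cct6a, a chaperonin subunit that overlaps Psph, had 569.1 to 814.0 CPM in 53BP1KO and 810.4 to 1029.6 CPM in Ctrl. Its ranges in the groups overlap, yet it was called lower in 53BP1KO (log2 fold change -0.34, SE 0.11, edgeR adjusted p = 0.0365). Both ranges lie far above the levels of Psph. D10Wsu102e, which overlaps Aldh1l2, had 113.9 to 124.8 CPM in 53BP1KO and 173.1 to 227.7 CPM in Ctrl, and was called lower (-0.68, SE 0.10, edgeR adjusted p = 0.00012). Smcr8, which overlaps Shmt1, had 93.2 to 120.8 CPM in 53BP1KO and 87.4 to 103.4 CPM in Ctrl, and did not pass (0.18, SE 0.10, edgeR adjusted p = 0.19). Ndufa4l2, which overlaps Shmt2, stayed at 0.610 CPM or less in 53BP1KO and at 0.258 CPM or less in Ctrl. Gm47525, which overlaps Mthfd1, was not analysed here. What share of an enzyme's counts came from its partner was not tested.

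The rest of the pathway was read from 5 lists, written from textbook membership with earlier results of these data known. They hold 60 genes, of which 52 could be tested. Of these 14 rose and 7 fell by the quasi-likelihood test of edgeR, adjusted over all genes (26.9% and 13.5%, against 16.1% and 13.9% of all genes). Their median log2 fold change was 0.06, where that of all genes was 0.00. The 14 rises became 8 without 53BP1KO replicate 1.

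Of the remaining cytosolic folate and uptake genes 2 of 7 tested rose, 1 fell and 4 did not pass (median 0.12). The gene that fell was Tyms, thymidylate synthase, with 4.85 ± 0.768 CPM in 53BP1KO and 10.7 ± 1.95 CPM in Ctrl (-1.13, SE 0.16, edgeR adjusted p = 0.000138). Ggh, which trims the glutamate tail of folates, rose to 141.2 ± 28.7 CPM in 53BP1KO, against 97.1 ± 8.6 CPM in Ctrl (0.54, SE 0.13, edgeR adjusted p = 0.0056). Mthfs rose by 0.66 (SE 0.21, edgeR adjusted p = 0.0282), a call lost without 53BP1KO replicate 1, 2 or 4 or Ctrl replicate 3 or 4. Aldh1l1, the cytosolic counterpart of Aldh1l2 and an astrocyte marker, had 8.38 ± 1.51 CPM in 53BP1KO and 7.70 ± 2.09 CPM in Ctrl (0.12, SE 0.19, edgeR adjusted p = 0.682). The folate carrier gene Slc46a1 did not pass either (-0.31, SE 0.14, edgeR adjusted p = 0.118).

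Most mitochondrial one-carbon genes outside the 9 did not pass: 2 of 11 tested rose, none fell and 9 did not pass (median 0.07), where 16.1% of all genes rose. Amt, the folate-binding aminomethyltransferase of glycine cleavage, rose by 0.47 (SE 0.09, edgeR adjusted p = 0.00126). Dld, the lipoamide dehydrogenase that glycine cleavage shares with pyruvate dehydrogenase, rose by 0.33 (SE 0.11, edgeR adjusted p = 0.0302), and this call was lost without 53BP1KO replicate 1, 3 or 4 or Ctrl replicate 2, 3 or 4. The serine carrier Sfxn1 had 519.0 ± 51.2 CPM in 53BP1KO and 473.8 ± 32.3 CPM in Ctrl (0.13, SE 0.09, edgeR adjusted p = 0.312), and Gcsh, the lipoyl carrier of glycine cleavage, had a log2 fold change of -0.01 (SE 0.11, edgeR adjusted p = 0.949). Mthfd2l, a close relative of Mthfd2 in mitochondria, had 111.2 ± 14.2 CPM in 53BP1KO and 118.6 ± 6.70 CPM in Ctrl (-0.09, SE 0.10, edgeR adjusted p = 0.514); it is named outside the rule for its kinship with Mthfd2.

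Downstream users of the carbon mostly did not pass or fell. Of 7 methionine cycle genes tested 1 rose, Mat2a, which makes S-adenosylmethionine (0.34, SE 0.09), and 1 fell, Ahcy, which splits S-adenosylhomocysteine (-0.75, SE 0.11), with edgeR adjusted p = 0.0121 and 0.000139; the call of Mat2a was lost without 53BP1KO replicate 1. Ahcyl1 (-0.10, SE 0.08) and Mtr (-0.06, SE 0.11), the methionine synthase gene, did not pass. Of 12 purine synthesis genes none rose and 4 fell (median -0.20), where 13.9% of all genes fell. These were the amidotransferase gene Ppat (-0.65, SE 0.19), Impdh1 of guanine nucleotide synthesis (-0.56, SE 0.14), and Prps1 (-0.45, SE 0.10) and Prps2 (-0.43, SE 0.09), which make the ribose donor and lie on the X chromosome; the edgeR adjusted p-values were 0.0169, 0.00748, 0.00438 and 0.00197 in that order. The call of Ppat was lost without 53BP1KO replicate 1 or 4. Gmps (-0.15, SE 0.09) and Adss (-0.11, SE 0.10) were the most abundant purine genes that did not pass.

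Genes of serine transport and use leaned higher, with 9 of 15 tested rising and 1 falling (median 0.47). These are 60.0% and 6.67%, against 16.1% and 13.9% of all genes. Slc1a4, a neutral amino acid exchanger that carries serine, rose to 692.5 ± 36.5 CPM in 53BP1KO, against 248.0 ± 30.5 CPM in Ctrl (1.48, SE 0.10, edgeR adjusted p = 7.71e-08). Slc7a10, another serine exchanger, rose by 1.35 (SE 0.22), Slc1a5 by 0.84 (SE 0.14) and Slc38a1 by 0.65 (SE 0.08). The gene that fell was Sptlc2 of sphingolipid synthesis (-0.32, SE 0.09), named because it was the only one, and its call was lost without 53BP1KO replicate 4 or Ctrl replicate 2 or 3, and without a filter on low counts. Without 53BP1KO replicate 2 or Ctrl replicate 4 the number that fell was 2. The 9 rises became 6 without 53BP1KO replicate 1. Serinc5 (0.03, SE 0.14) and Sptlc1 (0.18, SE 0.10) were the most abundant that did not pass.

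**Figure D4:**
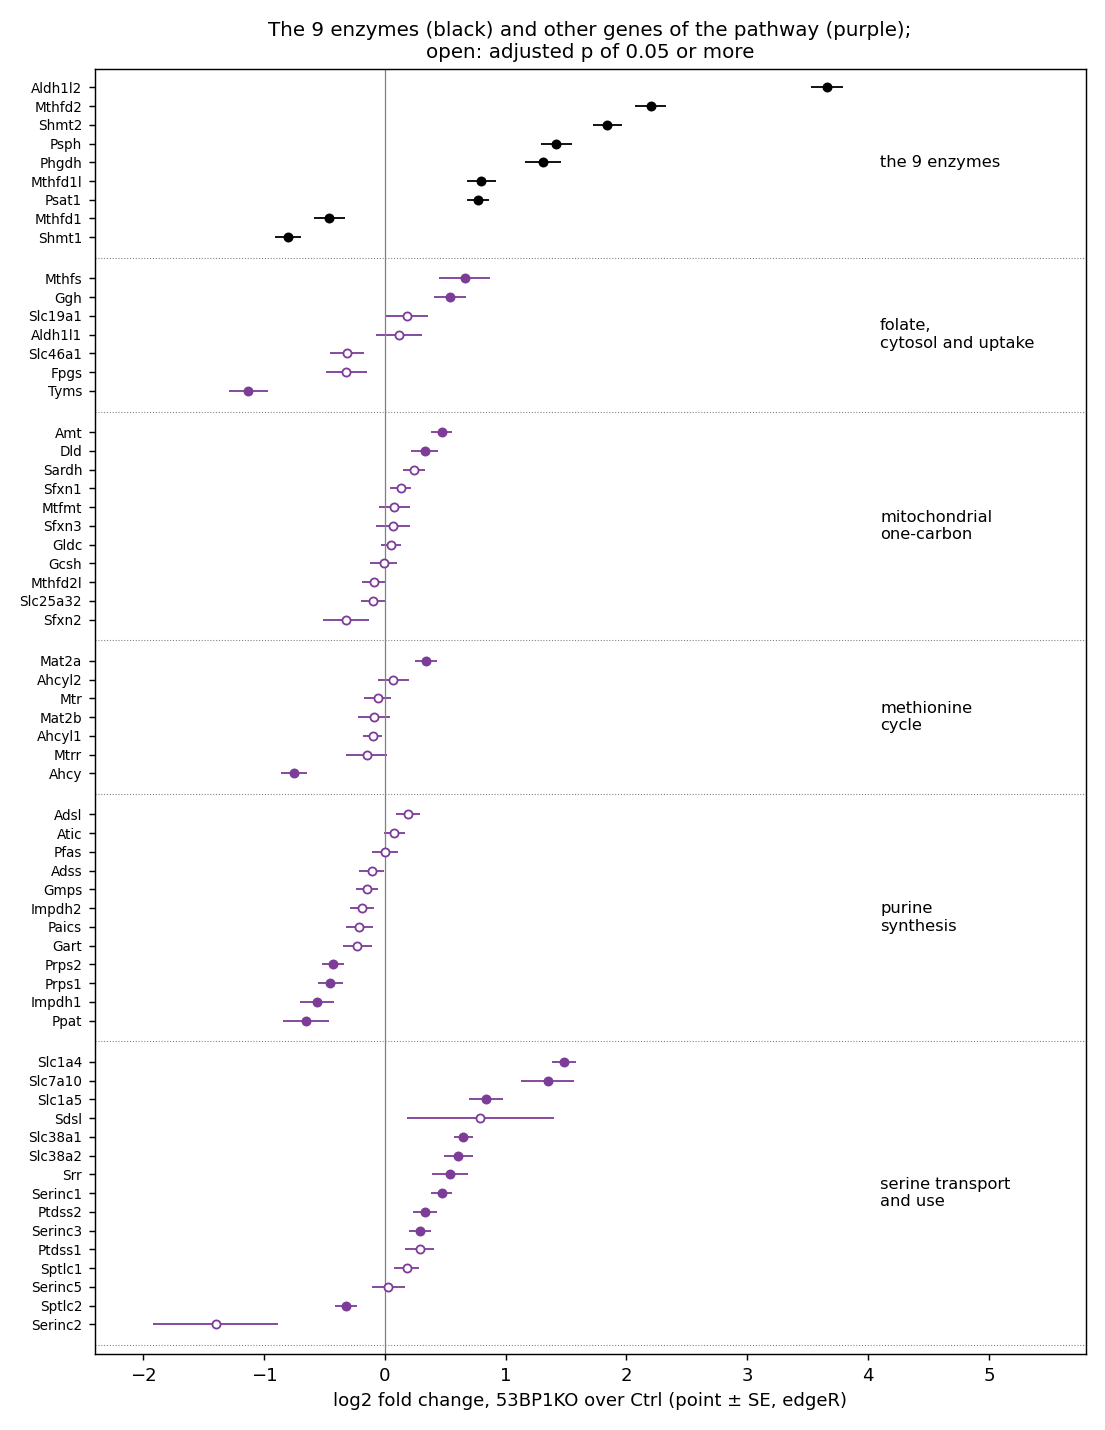
Log2 fold change of 53BP1KO over Ctrl with its SE (edgeR) for the 9 enzymes in black and the 52 other tested genes of the pathway in purple, sorted within each list, with open points for an adjusted p of 0.05 or more. Aldh1l2 (3.66), Mthfd2 (2.20) and Shmt2 (1.84) lie farthest right, and Slc1a4 (1.48) is the highest of the other genes.

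Of 11 genes listed as regulators, a list written with earlier results known, 8 rose and 1 fell in 53BP1KO (median 1.70). These are 72.7% and 9.09%, against 16.1% and 13.9% of all genes. Atf4, which encodes the transcription factor known to drive serine synthesis and Mthfd2 in mammals, rose to 36.0 ± 4.48 CPM in 53BP1KO, against 18.3 ± 2.42 CPM in Ctrl (0.97, SE 0.12, edgeR adjusted p = 4.99e-05); it is named outside the rule because of that role. The largest rises were those of Trib3 (6.03, SE 0.25), Cebpb (2.83, SE 0.23), Ddit3 (2.81, SE 0.15) and Atf5 (2.67, SE 0.17), all known as stress-induced genes. Myc, also named for its role, fell by 0.43 on the log2 scale (log2 fold change -0.43, SE 0.10), a call lost without a filter on low counts. Its relative Mycn rose by 1.70 (SE 0.28, edgeR adjusted p = 0.000426), to 3.16 ± 0.859 CPM in 53BP1KO, against 0.983 ± 0.238 CPM in Ctrl. Max rose by 0.45 (SE 0.14), a call lost without 53BP1KO replicate 1, 3 or 4 or Ctrl replicate 2. Nfe2l2 (-0.21, SE 0.14) and Mycl (-0.06, SE 0.16) did not pass. Whether any of them set the levels of the 9 enzymes was not tested.

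Markers of cell cycle and cell type moved beside the enzymes, where 16.1% of all genes rose and 13.9% fell. All 14 genes of the S phase list fell (median -1.03), and their summed level was 2525.8 to 3277.3 CPM in 53BP1KO and 5421.8 to 6935.4 CPM in Ctrl. The largest part of each sum was Mki67, a marker of cycling cells not confined to S phase (1431.3 CPM in 53BP1KO and 2880.9 CPM in Ctrl). Ccne2 (-2.15), Cdc6 (-1.95), Cdt1 (-1.70) and Ccne1 (-1.51) fell most. Of 7 astrocyte markers 6 rose and none fell, with a summed level of 663.8 to 801.1 CPM in 53BP1KO and 272.6 to 339.4 CPM in Ctrl. Most of that sum was Slc1a2 (458.9 CPM in 53BP1KO and 212.1 CPM in Ctrl), and Aldh1l1, given above, did not pass. Gfap, a filament protein of astrocytes, rose to 70.6 ± 11.7 CPM in 53BP1KO, against 7.40 ± 3.14 CPM in Ctrl (log2 fold change 3.26, SE 0.22), and S100b, a calcium-binding protein, rose to 89.5 ± 10.2 CPM in 53BP1KO, against 19.5 ± 1.56 CPM in Ctrl (2.20, SE 0.11). Of 9 neural progenitor markers 5 rose and 2 fell, with a summed level of 9046.4 to 12470.8 CPM in 53BP1KO and 9539.5 to 11626.4 CPM in Ctrl, and the rises became 3 without 53BP1KO replicate 3 or 4 or Ctrl replicate 3. Of 7 neuron markers 2 rose and 2 fell, with 351.6 to 424.4 CPM in 53BP1KO and 374.8 to 508.0 CPM in Ctrl. The rises became 1 when any library but 53BP1KO replicate 2 or Ctrl replicate 4 was left out. The call lost was that of Tubb3 (0.68, SE 0.23), lost also with DESeq2 or a robust dispersion. Its groups overlap, with Ctrl replicate 4 at 39.0 CPM. Fabp7, whose protein the sorting dye binds, had 7792.7 ± 1268.6 CPM in 53BP1KO and 7591.0 ± 1014.0 CPM in Ctrl (SD, n = 4); the sort itself selected for it. Among other progenitor markers Sox2 rose to 166.3 ± 22.7 CPM in 53BP1KO, against 97.0 ± 7.68 CPM in Ctrl (0.78, SE 0.10). The filament gene Nes fell to 113.9 ± 16.8 CPM in 53BP1KO, against 212.9 ± 37.2 CPM in Ctrl (-0.90, SE 0.13), and Vim to 802.0 ± 47.4 CPM in 53BP1KO, against 1050.7 ± 78.0 CPM in Ctrl (-0.39, SE 0.09). Most of the progenitor sum was Fabp7, and most of the neuron sum was Map2 (345.1 CPM in 53BP1KO and 389.1 CPM in Ctrl). The other neuron markers averaged from 0.654 (Rbfox3) to 36.2 CPM (Tubb3) in 53BP1KO. In Ctrl they averaged from 0.694 (Stmn2) to 22.7 CPM (Tubb3). Markers of the labelled cell type were thus detected in both groups, beside those of astrocytes and, mostly through Map2, of neurons. The part of these changes in the levels of the 9 enzymes was not tested.

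The other cell types whose markers were examined were scarce in the libraries, and no list of oligodendrocyte markers was examined. Of 7 mesenchymal markers 5 could be tested and 4 fell, with 18.2 to 24.9 CPM in all in 53BP1KO and 42.7 to 97.7 CPM in Ctrl. The upper value was that of Ctrl replicate 4, and the other Ctrl libraries reached at most 49.3 CPM; 4 fell without it too. Endothelial markers, of which 1 of 2 tested fell, summed to 2.05 to 5.05 CPM in 53BP1KO and 5.81 to 12.0 CPM in Ctrl, highest again in Ctrl replicate 4. Microglial markers summed to at most 1.57 CPM in 53BP1KO and 2.33 CPM in Ctrl, and erythroid markers to at most 2.37 CPM in 53BP1KO and 2.28 CPM in Ctrl, with Hba-a1 and Hba-a2 listed at 0 throughout. Their part in the result was not tested.

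The genes whose levels over the 8 libraries ran closest to the mean of Phgdh, Psat1 and Psph, by Pearson's r of log2 CPM among 8597 other genes of at least 10 CPM, were Trim35 (0.999), Tspyl4 (0.995), Efcab2 (0.994), Fads3 (0.994) and Lars (0.994). The libraries fall into 2 separate groups, so r mostly follows the gap between them, and 302 genes reached 0.95. Trim35 had 707.3 ± 46.5 CPM in 53BP1KO and 389.2 ± 41.5 CPM in Ctrl, and Lars, a leucyl-tRNA synthetase, had 816.4 ± 90.8 CPM in 53BP1KO and 216.1 ± 29.5 CPM in Ctrl (SD, n = 4).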

How the data were processed

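The authors deposited read counts per gene symbol as whole numbers, from stranded total RNA libraries sequenced as paired ends of 100 cycles, per the labels' protocols. CASAVA, the counter HTSeq 0.6.1p1 and the builds NCBIM37 and mm9 stand in the submitters' processing notes. Neither an aligner nor HTSeq's strand setting is given there. Of 32499 genes, 15021 passed filterByExpr. After TMM scaling, edgeR 4.0.16 (R 4.3.3) compared 4 53BP1KO with 4 Ctrl libraries by its quasi-likelihood test; p-values were adjusted by Benjamini-Hochberg and called at 0.05. CPM use the TMM-scaled library size. An SE is the log2 fold change divided by the square root of its F. The fit was tested on simulated data.

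The 9 genes and all lists were chosen with earlier results of these data known. Some genes of the lists are not reported here and enter no list count. Besides the 9, the text names up to 4 genes past the threshold per list with the largest fold change. It also names the 2 most abundant per list that did not pass, the sex-linked genes and the 5 most alike. Outside this rule stand Mthfd2l, Sptlc2, Atf4, Myc, Mycn, Max, Mki67, the overlapping genes, Trp53bp1 and genes whose calls were lost. The markers, named after their values were seen, stand outside it as well. No pair of replicates agreed within sampling noise (chi-square per degree of freedom of at least 4.45). The lowest value was that of Ctrl replicates 2 and 3, and every other pair lay between 13.8 and 36.2. Alternatives were DESeq2 1.42.0, limma voom (limma 3.58.1), other scalings, filters and dispersions, a replicate block and leaving out each library. Ratios used a pseudocount of 0.5 counts. Promoter windows and exon lengths came from RefSeq and GENCODE M21 on GRCm38 by symbol.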

Additional observations from a re-analysis of the deposited data

Results flagged for a closer look

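Chance flags about 1 in 20 groups of 4 libraries, and 12 of 114 groups examined were flagged because a single library stood far from the other 3. Ctrl replicate 4 was the one in 7 of them. It had Mthfd2 at 116.4 CPM (others 79.0 to 84.5), Shmt1 at 68.9 CPM (58.3 to 59.8), Tyms at 13.6 CPM (9.37 to 9.99), Serinc5 at 573.4 CPM (348.8 to 385.7), Efcab2 at 20.6 CPM (15.2 to 16.0) and Lars at 259.8 CPM (197.8 to 207.7), all above the other Ctrl libraries, and Dld at 301.3 CPM, below their 374.3 to 379.9. 53BP1KO replicate 2 had Psat1 at 336.8 CPM (412.2 to 425.5 in the other 53BP1KO libraries), Trib3 at 209.2 CPM (262.2 to 268.8) and Mthfd1 at 20.4 CPM (17.7 to 17.9). Ctrl replicate 2 had Kdm5d at 0.109 CPM, where the other Ctrl libraries had none; this is 2 counts, under the limit of 3 and not to be told from 0, so nothing is read from it. The same library had a log2 ratio of Mthfd2 to Mthfd1 of 1.69, where the others lay between 1.86 and 1.90.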

How the results depend on the processing

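The 9 enzymes were chosen by this contrast, so their 7 higher and 2 lower calls, found again under each of 16 alternatives of test, scaling, filter, dispersion, block and left-out library, are a description and no support. The 14 rises among other pathway genes became 8 without 53BP1KO replicate 1, and ran from 8 to 14 when any library was left out. With a replicate block, 13 of these genes rose and 8 fell, and 2237 genes rose and 1940 fell in all, against 2412 and 2087 without it. Deviations of same-numbered libraries correlated at 0.254 and 0.279 for numbers 1 and 2, the highest of all pairs, and at -0.158 and 0.01 for numbers 3 and 4. The lowest values were -0.319 for 53BP1KO replicate 2 with Ctrl replicate 1 and -0.312 for 53BP1KO replicate 1 with Ctrl replicate 2. Since not every same-numbered pair correlated, the numbers were not taken to pair the samples. Whether numbers 1 and 2 share a batch between the groups was not tested. Without a filter on low counts 62.1% of calls were higher, against 53.6%, and the median log2 fold change of all 30508 genes was -0.13. The Shmt2 to Shmt1 difference lay between 2.59 and 2.73 with any library left out. Calls of Dld, Mthfs, Mat2a, Ppat, Sptlc2, Max, Serinc3, Ptdss2, Srr, Hes5, Slc1a3 and Tubb3 were lost in some fits without 1 library. That of Sptlc1 was gained (0.25 without 53BP1KO replicate 2, edgeR adjusted p = 0.0466). The call of Serinc3 was also lost with the block, and that of Tubb3 with DESeq2 or a robust dispersion. The cause was not tested. A level under that of 3 counts (0.123 to 0.271 CPM) could not be told from 0.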
